A study of Mus musculus with 8 samples.

Results

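The interaction of prior interleukin 4 (IL-4) with lipopolysaccharide (LPS) was measured in mouse bone marrow-derived macrophages (BMDMs), macrophages grown from bone marrow. For each gene it is the log2 response to LPS of cells that had seen IL-4 minus the log2 response to LPS of cells that had not, and it is called the response difference here. A positive value means that the level after LPS was higher relative to rest when IL-4 came first, and 0 means that the effects of IL-4 and LPS add up on the log2 scale. All 8 libraries of the series enter it, and 12234 of the 54532 genes in the count table held enough reads to be tested. Control cells received neither agent, and LPS cells received 100 ng/ml LPS for 4 h. IL-4 cells received 20 ng/ml IL-4 for 24 h, and cells of the group IL-4 then LPS received the same IL-4 treatment, a wash, and 100 ng/ml LPS for 4 h. There were 2 libraries per group, labelled replicates 1 and 3. The submitters' title frames the treatment as trained immunity, a state in which an earlier stimulus alters a later response, and the response difference asks which genes answered LPS otherwise after IL-4. No strain or pooling of animals is given, nor whether IL-4 was removed from cells that got no LPS, or when those were harvested.

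LPS, a component of the outer membrane of Gram-negative bacteria, is sensed by Tlr4 with Cd14, and signals through NF-kB, MAP kinases and interferon regulatory factors to induce cytokines within hours. IL-4 signals through its receptor to the transcription factor STAT6 and drives the alternatively activated macrophage state, marked in mice by Arg1, Retnla, Chil3 and Mrc1. STAT6 can also restrain inflammatory genes, and cells whose IL-4 has been removed can carry altered chromatin into the next stimulus.

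Libraries held 7924932 to 9431852 counts. The 8 macrophage markers examined, among them Adgre1, Csf1r and Lyz2, were all detected and summed to 12322 to 24916 CPM per library, where CPM are a library's counts rescaled to a total of 1e6. Marker lists of other cells stayed far below that, at 1.47 to 85.5 CPM for dendritic cells, 0.864 to 8.0 CPM for neutrophils, 6.52 to 105 CPM for mast cells, basophils and eosinophils, 1.99 to 32.6 CPM for lymphocytes, 0 to 0.276 CPM for erythroid cells and 4.94 to 48.7 CPM for stromal cells. Defining genes such as Ly6g, Mcpt8 and Cd3e were at 0 in all 8 libraries. The dendritic cell, mast cell and stromal lists were higher in every LPS library than in every library without LPS. In the edgeR test without the replicate number as a term, no tested marker had an unadjusted p under 0.05 for the response difference. With that term 1 did, the macrophage marker Cd14 (unadjusted p 0.0362). In bulk RNA, fewer cells of a type and less RNA per cell cannot be told apart. Xist held 2936 to 4465 reads in replicate 1 of every group and 0 reads in replicate 3 of every group, so the libraries of a group come from cells of different sex.

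No gene passed the test of the response difference. With edgeR's quasi-likelihood test and Benjamini-Hochberg adjustment over 12234 genes, 0 genes were called higher (0%) and 0 lower (0%) at an adjusted p under 0.05, and the smallest adjusted p was 0.159, for the transcriptional repressor gene Bcl6. At an unadjusted p under 0.05, 120 genes (0.981%) were higher and 202 (1.65%) were lower, and these make 322 in all (2.63%). With the replicate number as a further term, 0 genes were called higher and 1 lower (0.00817%), again Bcl6, at an adjusted p of 0.0259. DESeq2 called 4 genes higher and 1 lower, namely Tmem154, Il1b, Inhba, Kif13b and Bcl6. Without the filter on low counts, the edgeR test called 16 genes higher and 37 lower, and 52 of these 53 genes were also among the filtered genes, where none passed. The cause of that dependence was not tested, and the genes described below are therefore reported as not called unless a test is named.

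The precision of the response difference set what could be seen. Its median over all tested genes was -0.03, with quartiles of -0.24 and 0.18, and the median standard error (SE) of a gene was 0.338 on the log2 scale. An absolute value of at least 1 was reached by 936 genes, 439 positive and 497 negative, but only 140 of these had an unadjusted p under 0.05. For 5864 genes, 47.9% of those tested, the 95% interval lay between -1 and 1, so that a difference of more than 2-fold in either direction lay outside it. For the other genes the interval reached past a 2-fold difference in at least 1 direction.

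The responses to LPS without and after IL-4 ran largely in parallel. LPS against control called 4942 genes (40.4%), and IL-4 then LPS against IL-4 called 4808 genes (39.3%). Of these, 4052 genes were called in both arms in the same direction, 2271 up and 1781 down, and 2 genes, Bcl6 and Kif13b, were called in opposite directions. A further 888 genes passed only without IL-4 and 754 only after IL-4. The response difference itself had an unadjusted p under 0.05 for 72 and 66 of them. Both are larger shares than the 2.63% of all tested genes, which the choice of genes called in only 1 arm favours. Across genes, the log2 responses of the arms, which share no library, had a Pearson correlation of 0.927 and a Spearman correlation of 0.910, as a description and not a test. Genes induced by LPS on average over both arms (1857 genes, adjusted p under 0.05 and at least 2-fold) had a median response difference of -0.08. Genes reduced by LPS by the same rule (1780) had a median of -0.03, and all others (8597) of -0.02. Positive and negative values cancel in these medians. An unadjusted p under 0.05 was reached by 5.01% of induced, 4.44% of reduced and 1.74% of other genes. An absolute value of at least 1 was reached by 13.1%, 15.1% and 4.94%. The SE was not compared between these classes, so the shares are a description and may reflect unequal precision.

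**Figure D1:**
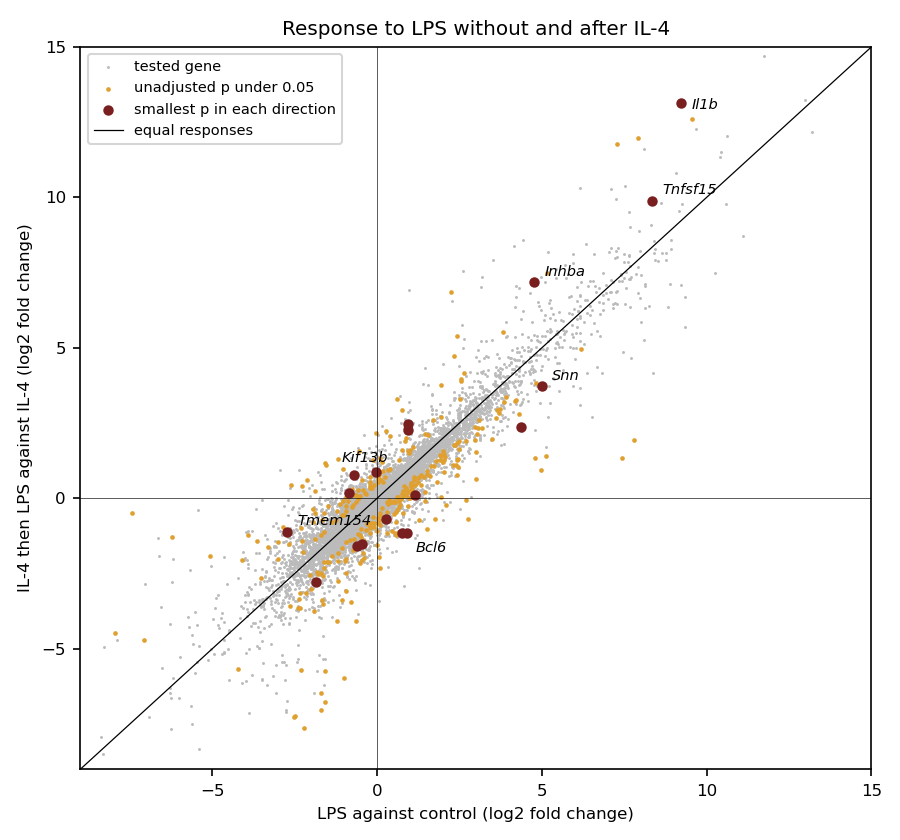
Log2 fold change of each of the 12234 tested genes after LPS without IL-4 (x axis) and after LPS that followed IL-4 (y axis), with the line of equal responses. Most genes lie along the line, and Bcl6 and Kif13b lie in the quadrants where the directions differ. Orange points had an unadjusted p under 0.05, and dark points are the genes with the smallest p in each direction that are reported here and held more than 3 reads in every group.

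Bcl6 (ENSMUSG00000022508, chromosome 16, 23965052 to 23988852, mm10, minus strand) encodes a zinc finger transcriptional repressor that restrains NF-kB target genes in macrophages and recognises DNA motifs that overlap those of STAT factors. It measured 42.01 and 51.6 CPM in control, 92.3 and 83.5 CPM after LPS, 38.1 and 43.01 CPM after IL-4 and 18.2 and 17.9 CPM after IL-4 then LPS, for replicates 1 and 3. Resting levels with and without IL-4 overlapped within the spread of the replicates, LPS libraries were the highest, and libraries of IL-4 then LPS were the lowest, with no overlap between either LPS group and any other group. Bcl6 rose after LPS without IL-4 by 0.91 ± 0.15 on the log2 scale (adjusted p 0.00206) and had a log2 change of -1.17 ± 0.16 after IL-4 (adjusted p 0.000797). The response difference was -2.08 ± 0.21 (SE), with a 95% interval of -2.57 to -1.58 and an adjusted p of 0.159. It was -2.20 in replicate 1 and -1.96 in replicate 3. With the replicate term it was -2.08 ± 0.19 (interval -2.52 to -1.64, adjusted p 0.0259). That call was kept in 1 of the 8 fits that leave out a library, the fit without replicate 3 of LPS (adjusted p 0.027), and in the other 7 the adjusted p ran from 0.0652 to 0.338 while the value stayed between -2.17 and -1.88.

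The start regions of Bcl6 are shown because Bcl6 is the gene called with the replicate term and its LPS response was called in opposite directions in the arms. RefSeq lists 2 start sites on GRCm38.p6, and the windows hold 250 bases before and 50 after each, read 5′ to 3′ on the minus strand, with capitals marking matches to TTCNNNGAA, the core motif of STAT dimers with a gap of 3 bases.
Bcl6 start region chr16:23988803-23989102: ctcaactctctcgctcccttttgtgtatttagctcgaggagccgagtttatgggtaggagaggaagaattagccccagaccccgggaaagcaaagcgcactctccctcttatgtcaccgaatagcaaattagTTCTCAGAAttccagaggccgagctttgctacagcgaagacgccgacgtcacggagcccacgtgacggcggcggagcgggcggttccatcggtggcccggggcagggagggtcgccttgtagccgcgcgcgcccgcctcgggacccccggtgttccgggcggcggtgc
Bcl6 start region chr16:23981234-23981533: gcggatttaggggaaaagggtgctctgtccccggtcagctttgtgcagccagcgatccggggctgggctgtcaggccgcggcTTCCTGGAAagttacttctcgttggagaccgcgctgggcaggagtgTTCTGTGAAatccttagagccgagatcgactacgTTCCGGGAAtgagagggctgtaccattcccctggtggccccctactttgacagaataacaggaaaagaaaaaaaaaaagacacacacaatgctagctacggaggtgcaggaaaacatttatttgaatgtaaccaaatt
The first window held 1 match and the second held 3, and each held 0 matches to the form with a gap of 4 bases. Which STAT factor, if any, binds these windows was not tested. The motif reads the same on both strands, and 8.3% of 32851 mouse start regions of this length hold at least 1 match. Among the 10 genes with the smallest p in each direction, 7 matched the RefSeq table on the higher side, with 8 windows and no match, and 7 on the lower side, with 11 windows of which 3 had a match, those of Bcl6 and a window of Arhgap25. With a gap of 4 bases (TTCNNNNGAA, in 6.95% of all windows), 0 of 8 and 1 of 11 windows matched, the latter of Kcnk13, and the NF-kB motif was found in none of these windows against 8.46% of all. A match describes letters and shows no binding.

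Kif13b, a kinesin motor gene, was called in the opposite directions to Bcl6. It measured 100.1 and 94.4 CPM in control, 53.1 and 67.6 CPM after LPS, 75.96 and 65.7 CPM after IL-4 and 101 and 143 CPM after IL-4 then LPS. Libraries without IL-4 were lower with LPS than without it, and libraries with IL-4 were higher with LPS, each without overlap. Its log2 response was -0.69 ± 0.20 without IL-4 (adjusted p 0.0265) and 0.78 ± 0.20 after IL-4 (adjusted p 0.0162). The response difference of 1.47 ± 0.28 (interval 0.82 to 2.12) was not called, with an adjusted p of 1.0, and 0.222 with the replicate term.

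**Figure D2:**
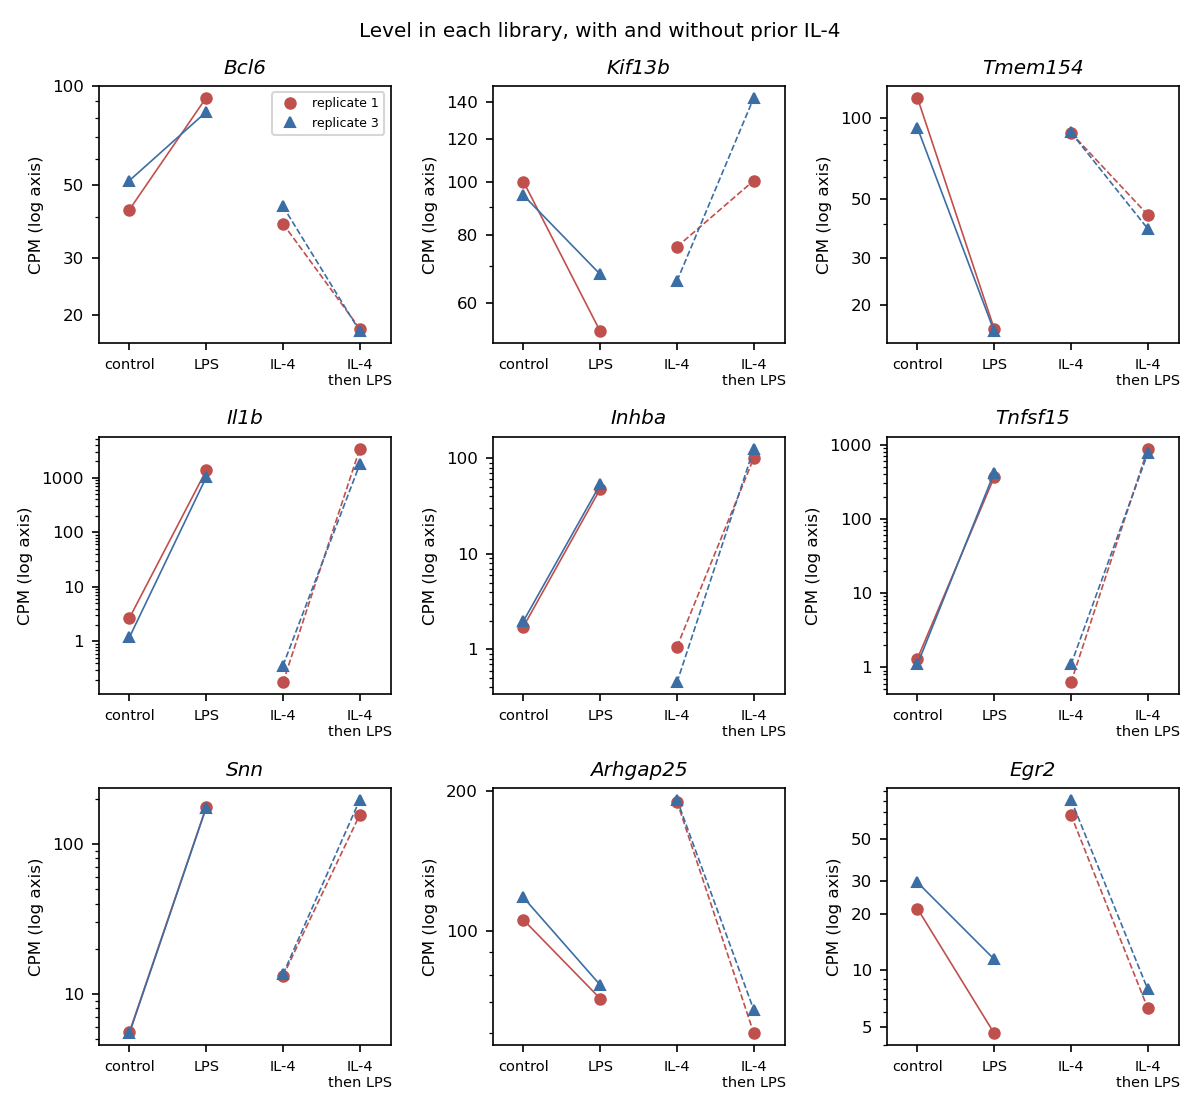
CPM on a log axis in each of the 8 libraries for 9 genes, with circles for replicate 1, triangles for replicate 3, solid lines joining control to LPS and dashed lines joining IL-4 to IL-4 then LPS. Parallel solid and dashed lines mean no response difference. The lines of Bcl6 and Kif13b run in opposite directions, those of Il1b and Inhba are steeper after IL-4, and those of Arhgap25 and Egr2 start higher after IL-4 and end at similar or lower levels.

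Il1b, Inhba and Tnfsf15, which encode secreted or ligand proteins, were among the 10 genes with the smallest p for a positive value. Il1b, the precursor of interleukin 1 beta (ENSMUSG00000027398, chromosome 2, 129364570 to 129371139), measured 2.68 and 1.19 CPM in control and 1354 and 1017 CPM after LPS, against 0.178 and 0.362 CPM after IL-4 and 3391 and 1764 CPM after IL-4 then LPS. The IL-4 libraries were the lowest and those of IL-4 then LPS the highest, an order that choosing genes by a positive value favours. IL-4 was called neither at rest (adjusted p 0.373) nor under LPS (0.442) without the replicate term. With it the adjusted p was 0.0265 and 0.0159. The response difference of Il1b was 3.92 ± 0.82 (interval 2.03 to 5.82, unadjusted p 0.00147, adjusted p 1.0), and the IL-4 group held only 6 reads. It was 4.88 in replicate 1 and 2.37 in replicate 3, so replicates differed in size. The same direction in both replicates was required when these 10 genes were chosen. With the replicate term it was 3.83 ± 0.52 (adjusted p 0.148).

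Inhba, which encodes the subunit of activin A, measured 1.73 and 1.98 CPM in control, 47.7 and 53.3 CPM after LPS, 1.07 and 0.453 CPM after IL-4 and 101 and 126 CPM after IL-4 then LPS. Its response difference was 2.43 ± 0.43 (interval 1.44 to 3.42, unadjusted p 0.000518, adjusted p 1.0). Here too the resting level was lowest, and the level under LPS highest, in cells that had seen IL-4. The choice of genes by a positive value favours this order as well. The IL-4 group held 17 reads, and IL-4 at rest was not called (adjusted p 0.48 without and 0.155 with the replicate term). Under LPS the adjusted p for IL-4 was 0.144 without and 0.00712 with that term. Tnfsf15, the TNF family ligand TL1A, went from 1.30 and 1.09 CPM to 366 and 420.2 CPM without IL-4 and from 0.624 and 1.09 CPM to 885 and 769 CPM with it. At rest, replicate 3 was at the same printed level in both groups, its LPS levels did not overlap, and the response difference was 1.55 ± 0.37 (unadjusted p 0.00336). Osm, oncostatin M of the interleukin 6 family, measured 12.1 and 5.14 CPM in control, 10.9 and 11.9 CPM after LPS, 7.31 and 3.53 CPM after IL-4 and 29.4 and 16.1 CPM after IL-4 then LPS, with a response difference of 1.67 ± 0.70 (unadjusted p 0.0443). LPS passed the test for Osm after IL-4 (log2 change 2.06 ± 0.50, adjusted p 0.0136) and not without it (0.39 ± 0.49, adjusted p 0.551).

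For Il1a, which encodes interleukin 1 alpha, the IL-4 group held 3 reads, and no fitted value is given. Its level was 389.9 and 262 CPM after LPS and 1209 and 651 CPM after IL-4 then LPS, the latter higher without overlap, and the read ratio between IL-4 then LPS and IL-4 was 6780 (95% counting interval 2319 to 32880). Of 20 tested inflammatory cytokines, 0 were called. An unadjusted p under 0.05 went with a positive value for 4 (Il1b, Tnfsf15, Il1a and Osm) and with a negative value for 0. Over all tested genes these shares were 0.981% and 1.65%. The median response difference of the list was 0.81, beside -0.03 over all tested genes, and 0.82 and 0.92 within replicates 1 and 3. A group of 3 reads or fewer was behind 10 of these 20 values, and the median of the remaining members was 0.67. Computed instead from pooled reads, with group totals under 3 reads raised to 3, the median over all 20 members was 1.06. The list was compiled with earlier results of these data known, so its median is a description.

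For Tnf, Il6 and Il12b the data gave wide intervals or no usable response difference. Tnf, tumour necrosis factor, measured 9.94 and 49.7 CPM in control, 1541 and 3334 CPM after LPS, 10.97 and 54.96 CPM after IL-4 and 2437 and 3853 CPM after IL-4 then LPS. Replicate 3 was higher than replicate 1 in every group, and the response difference was 0.22 ± 1.21 with an interval of -2.57 to 3.01. Il6 held 1 read in control and 2 reads after IL-4, and Il12b, which encodes the p40 cytokine subunit, held 1 and 4, which leaves no usable response difference. Under LPS, Il6 stood at 409.9 and 559 CPM without and 963 and 1024 CPM after IL-4, and Il12b at 319 and 804 CPM and 523 and 1255 CPM. The LPS groups did not overlap for Il6 (IL-4 under LPS, adjusted p 0.312 without and 0.0144 with the replicate term). They overlapped for Il12b, which stood higher after IL-4 within each replicate (adjusted p 0.774 without and 0.0146 with the replicate term). Il10, the anti-inflammatory cytokine, measured 37.2 and 6.21 CPM after LPS and 7.72 and 1.94 CPM after IL-4 then LPS, and its response difference of -1.38 had an interval of -6.63 to 3.87. Ifnb1, interferon beta, held 2 reads in control, 55 after LPS, 0 after IL-4 and 57 after IL-4 then LPS.

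**Figure D3:**
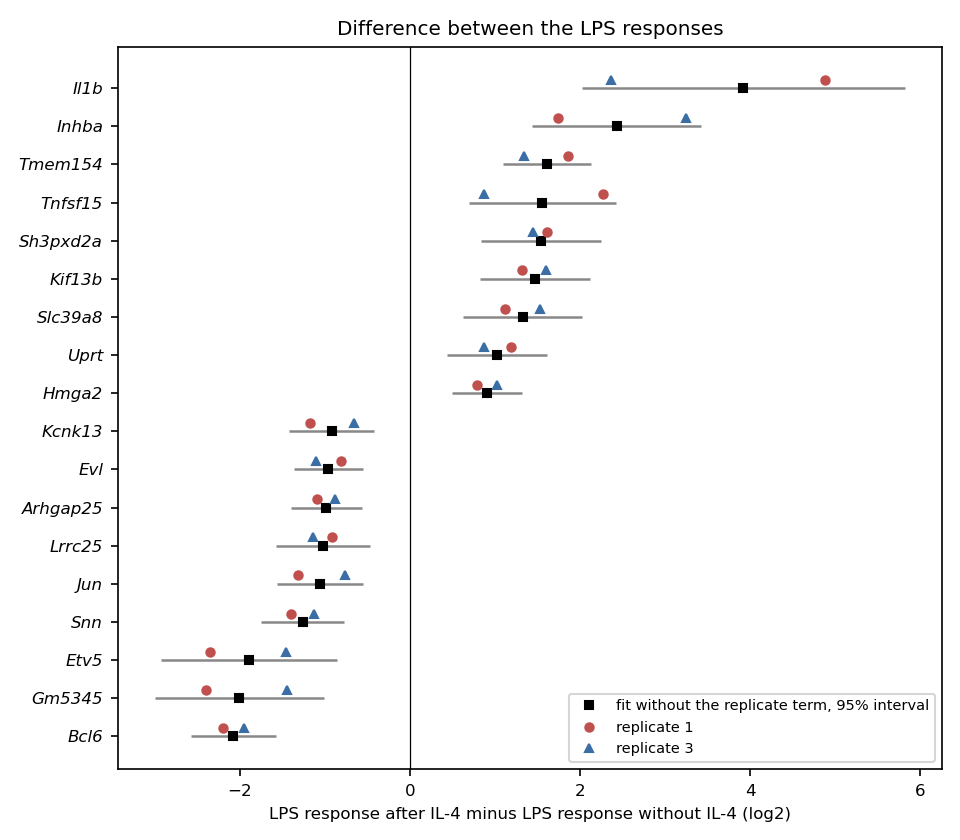
Response difference (log2) of the reported genes with the smallest unadjusted p in each direction, with the 95% interval of the fit without the replicate term as a grey line and the value within each replicate as a circle (1) or triangle (3). Both replicates lie on the same side of 0 for every gene shown, which the choice of genes required. Zfp395 is left out because LPS libraries held 1 read of it.

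Tmem154, a transmembrane protein gene (ENSMUSG00000056498, chromosome 3, 84666192 to 84704575), had the smallest p among positive values. It measured 119 and 92.2 CPM in control, 16.2 and 15.9 CPM after LPS, 88.2 and 88.5 CPM after IL-4 and 43.4 and 38.5 CPM after IL-4 then LPS. It fell in both arms, by 2.72 on the log2 scale without IL-4 and by 1.11 after it, and the LPS groups did not overlap. The response difference was 1.61 ± 0.22 (interval 1.10 to 2.12, adjusted p 0.605, and 0.0717 with the replicate term). Zfp395, a zinc finger gene, showed the same order with few reads: 447 reads in control and 449 after IL-4, against 1 read after LPS and 13 reads after IL-4 then LPS, a ratio of 12.8 between the LPS groups (95% counting interval 1.93 to 546). Uprt, related to uracil phosphoribosyltransferase, fell after LPS without IL-4 (log2 change -0.85 ± 0.18, adjusted p 0.00708) and had 0.17 ± 0.18 after it.

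Among genes that LPS did not lower, Sh3pxd2a, a scaffold of podosomes (actin-rich adhesions that degrade matrix), measured 16.1 and 13.8 CPM in control, 28.9 and 28.02 CPM after LPS, 10.4 and 7.70 CPM after IL-4 and 57.7 and 42.6 CPM after IL-4 then LPS. Its LPS response was called in both arms, and the difference was 1.54 ± 0.30 (unadjusted p 0.00107). The zinc importer gene Slc39a8 went from 9.16 and 8.0 CPM to 18.9 and 14.4 CPM without IL-4 and from 5.26 and 5.43 CPM to 23.6 and 28.3 CPM with it, a response difference of 1.33 ± 0.30 (unadjusted p 0.00247). Hmga2, an architectural chromatin protein, was at 45.2 and 48.3 CPM in control and 47.96 and 43.2 CPM after LPS, and at 31.2 and 29.97 CPM after IL-4 and 57.2 and 54.7 CPM after IL-4 then LPS. LPS passed the test for Hmga2 after IL-4 and not without it (log2 change 0.87 ± 0.13, adjusted p 0.00125, against -0.04 ± 0.13), and the response difference was 0.91 ± 0.18 (unadjusted p 0.00103, adjusted p 1.0). In these genes IL-4 libraries were the lowest of all groups and those of IL-4 then LPS the highest. Choosing genes by a positive value favours this order. Without the replicate term IL-4 was called neither at rest nor under LPS for Sh3pxd2a, Slc39a8 or Hmga2 (adjusted p 0.207 to 0.581). With it, IL-4 passed for Hmga2 at rest (adjusted p 0.028) and for Sh3pxd2a under LPS (adjusted p 0.0257).

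Some genes with negative values lay higher in IL-4 than in control libraries and overlapped under LPS. Snn, which encodes stannin, measured 5.53 and 5.43 CPM in control, 13.1 and 13.5 CPM after IL-4, 176 and 175 CPM after LPS and 157 and 198 CPM after IL-4 then LPS. Its LPS response was 5.0 ± 0.17 without and 3.74 ± 0.16 after IL-4, a difference of -1.26 ± 0.21 (interval -1.75 to -0.77, unadjusted p 0.000373, adjusted p 1.0). The resting groups of Snn did not overlap and the LPS groups did, and IL-4 at rest had an adjusted p of 0.0681 without and 0.00505 with the replicate term. Gm5345, annotated as a processed pseudogene, had the same course (-2.01 ± 0.43, IL-4 at rest adjusted p 0.191 without and 0.0276 with the replicate term), but its reads cannot be separated from those of near-identical copies and the value is uncertain.

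Lrrc25, a leucine-rich repeat membrane protein gene, overlapped at rest and not between the LPS groups, where the adjusted p for IL-4 was 0.129 without and 0.00385 with the replicate term. It measured 65.95 and 60.5 CPM in control and 66.2 and 59.2 CPM after IL-4, 148 and 131 CPM after LPS and 78.8 and 58.1 CPM after IL-4 then LPS. LPS passed the test without IL-4 (1.15 ± 0.17, adjusted p 0.00132) and not after it (0.12 ± 0.17, adjusted p 0.595), with a difference of -1.02 ± 0.24 (unadjusted p 0.00291). Kcnk13, a background potassium channel gene, fell in both arms, to 21.5 and 17.7 CPM after LPS and to 9.76 and 11.1 CPM after IL-4 then LPS from 67.7 and 73.2 CPM and 69.4 and 73.3 CPM, a difference of -0.92 ± 0.22.

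Among early-response and growth-related transcription factor genes, Egr2, Myc, Etv5 and Jun had an unadjusted p under 0.05 with a negative value. Egr2, an IL-4-responsive zinc finger factor, measured 21.4 and 29.4 CPM in control, 67.3 and 81.2 CPM after IL-4, 4.61 and 11.5 CPM after LPS and 6.26 and 7.91 CPM after IL-4 then LPS. IL-4 libraries were the highest at rest and the LPS groups overlapped. IL-4 at rest had an adjusted p of 0.242 without and 0.00393 with the replicate term. The fall of Egr2 after LPS was -1.66 ± 0.37 without and -3.38 ± 0.38 after IL-4 (difference -1.73 ± 0.52, unadjusted p 0.0114). Myc, the growth regulator, stood at 4.67 and 5.43 CPM in control, 5.73 and 4.42 CPM after LPS, 12.04 and 13.8 CPM after IL-4 and 3.50 and 5.31 CPM after IL-4 then LPS, and LPS passed the test after IL-4 and not without it (-1.54 ± 0.29, adjusted p 0.00424, against 0.01 ± 0.29, adjusted p 0.986). The response difference of Myc was -1.55 ± 0.41 (unadjusted p 0.00574, adjusted p 1.0). Etv5, a factor of the ETS family, was also highest in the IL-4 libraries, at 10.5 and 10.8 CPM against 3.20 and 5.33 CPM in control, 8.25 and 6.07 CPM after LPS and 5.24 and 4.41 CPM after IL-4 then LPS (difference -1.89 ± 0.45). For Myc, IL-4 at rest had an adjusted p of 0.207 without and 0.0264 with the replicate term. For Etv5 these were 0.281 and 0.0521.

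Jun, a subunit of the AP-1 factor, measured 70.6 and 73.1 CPM in control, 59.3 and 45.5 CPM after LPS, 95.2 and 84.4 CPM after IL-4 and 31.9 and 30.97 CPM after IL-4 then LPS. It fell in both arms (-0.46 ± 0.15 and -1.51 ± 0.16), and its difference was -1.06 ± 0.22 (unadjusted p 0.00135). Of 24 tested AP-1, Egr and other early-response factors, 0 were called. An unadjusted p under 0.05 went with a positive value for 0 and with a negative value for 3 (Jun, Myc and Egr2). Over all tested genes these shares were 0.981% and 1.65%. With the replicate term, 1 gene reached that threshold with a positive value, Ier3 (unadjusted p 0.00107), and 4 with a negative value. Of all tested genes, 6.45% reached it in either direction with that term. Without the term the value was positive for 8 of the 24. The median of the list was -0.30, and -0.28 and -0.20 within replicates 1 and 3.

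The actin regulators Arhgap25, a GTPase-activating protein for Rac, and Evl, of the Ena/VASP family, were also highest in the IL-4 libraries. Arhgap25 measured 105 and 118 CPM in control, 189.7 and 192 CPM after IL-4, 71.3 and 76.3 CPM after LPS and 60.02 and 67.4 CPM after IL-4 then LPS. IL-4 libraries were the highest and those of IL-4 then LPS the lowest, an order that choosing genes by a negative value favours. The difference of Arhgap25 was -0.98 ± 0.18 (interval -1.40 to -0.57, unadjusted p 0.000644). Evl went from 87.9 and 84.5 CPM to 98.3 and 110.4 CPM without IL-4 and from 123 and 134 CPM to 78.2 and 81.6 CPM with it, and it fell after IL-4 (adjusted p 0.00358), while LPS without IL-4 was not called (adjusted p 0.110, and 0.0479 with the replicate term). The difference of Evl was -0.96 ± 0.17. IL-4 at rest had an adjusted p of 0.136 without and 0.00505 with the replicate term for Arhgap25. For Evl these were 0.218 and 0.0237.

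Of 22 tested macrophage identity genes, 1 was higher and 2 were lower at an unadjusted p under 0.05. Over all tested genes 0.981% were higher and 1.65% lower. Runx1, a haematopoietic factor, had -0.57 ± 0.23 (unadjusted p 0.0385), and Irf8, which guides the monocyte lineage, had 0.63 ± 0.23 (unadjusted p 0.0261), with 330.4 and 327 CPM after LPS and 448 and 433 CPM after IL-4 then LPS. The median of this list was -0.07.

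Markers of alternative activation showed no called response difference. Chil3, a chitinase-like secreted protein whose reads may be shared with the related gene Chil4, measured 2.51 and 1.68 CPM in control, 1.40 and 1.79 CPM after LPS, 84.8 and 132 CPM after IL-4 and 111 and 153 CPM after IL-4 then LPS, with a difference of 0.68 ± 0.51 (interval -0.50 to 1.86). Its levels after IL-4 with and without LPS overlapped, far above those without IL-4. Retnla, a secreted resistin-like protein, held 0 reads without IL-4, with or without LPS, and 23.4 and 25.7 CPM after IL-4 and 27.4 and 34.7 CPM after IL-4 then LPS. It was at least 178-fold higher in IL-4 than in control and at least 150-fold higher in IL-4 then LPS than in LPS, against a floor of 3 reads over a group. Mrc1, the mannose receptor, was higher in replicate 1 of every group, and its difference was -0.02 ± 0.78 with an interval of -1.83 to 1.80 that leaves a change of 2-fold in either direction inside it. With the replicate term the interval narrowed to -0.45 to 0.47. Arg1, arginase 1, held 1 read in control, 0 after LPS, 53 after IL-4 and 51 after IL-4 then LPS.

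The chemokines Ccl17 and Ccl22, ligands of the receptor Ccr4, were highest in IL-4 then LPS. Ccl22 measured 0.173 and 0.494 CPM in control, 36.1 and 37.8 CPM after LPS, 4.81 and 2.90 CPM after IL-4 and 279 and 263 CPM after IL-4 then LPS. Its LPS response was 6.78 ± 0.36 without and 6.13 ± 0.27 after IL-4, and the response difference did not pass the test (-0.65 ± 0.51, interval -1.82 to 0.53). Ccl17 had 2 control reads and 3 IL-4 reads, and stood at 1.68 and 2.21 CPM after LPS and 21.1 and 18.1 CPM after IL-4 then LPS. Its read ratio between LPS and rest was 21.1 (95% counting interval 5.32 to 183) without and 145 (49.1 to 707) after IL-4, and these intervals overlap.

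Among 35 genes tested from a list of alternative activation by IL-4, 0 were called without the replicate term and 1, Bcl6, with it. With that term 0.00817% of all tested genes were called lower. The list, Bcl6 included, was compiled with earlier results of these data known, so this call is no evidence about the list. At an unadjusted p under 0.05, 0.981% of all tested genes were higher and 1.65% lower. Of the list, 1 gene was higher and 4 were lower (Bcl6, Myc, Egr2 and Dcstamp, a gene of macrophage fusion), and the median was 0.03. The higher gene was Irf4, a STAT6 target, at 2.42 and 2.07 CPM in control, 2.24 and 0.828 CPM after LPS, 1.87 and 2.44 CPM after IL-4 and 8.01 and 4.79 CPM after IL-4 then LPS. Only LPS after IL-4 was called for Irf4 (log2 change 1.56 ± 0.48, adjusted p 0.0339), and its difference was 2.11 ± 0.71 (unadjusted p 0.0186). Il4ra, the IL-4 receptor chain, had a difference of -0.70 ± 0.87, and LPS replicate 1, at 448 CPM, was far above LPS replicate 3, at 106 CPM.

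Of 20 tested chemokines, 0 were called. At an unadjusted p under 0.05 Cxcl3 and Cxcl9 were higher and Ccl8 was lower, beside 0.981% and 1.65% of all tested genes. Cxcl3, Cxcl9 and Ccl8 each had a group of 3 reads or fewer, so only levels are given. Cxcl3, a neutrophil attractant, measured 82.8 and 216 CPM after LPS and 397 and 436 CPM after IL-4 then LPS, with 13 reads in control and 2 after IL-4. Cxcl9, an interferon-induced T cell attractant, ran the other way under LPS, at 84.2 and 65.97 CPM without and 54.05 and 42.4 CPM after IL-4, with 10 reads in control and 0 after IL-4. Ccl8 held 0 reads in control, 44 after LPS, 16 after IL-4 and 40 after IL-4 then LPS. The median of the chemokines was 0.17, and 0.0018 without members that had a group of 3 reads or fewer. Cxcl10, an interferon-induced chemokine, had a difference of -0.33 ± 1.05 with an interval of -2.77 to 2.12.

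**Figure D4:**
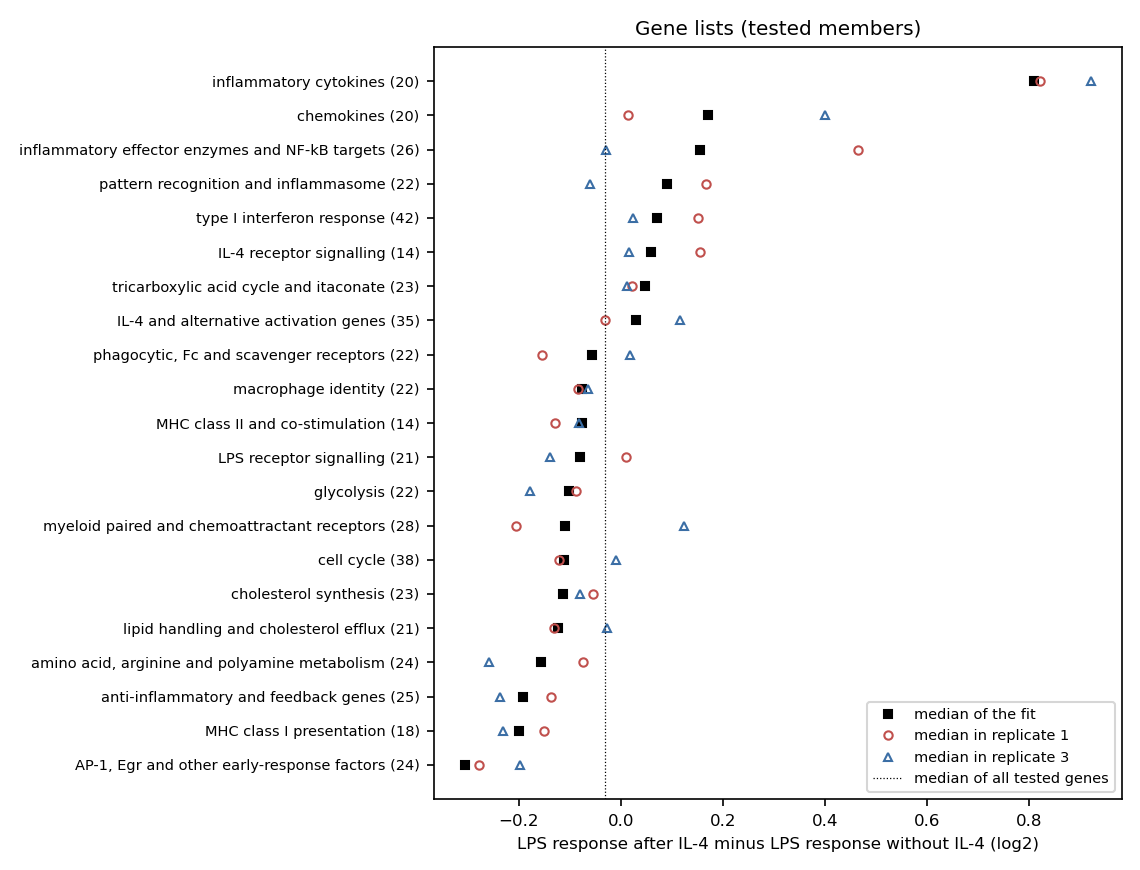
Median response difference (log2) of the tested members of 21 gene lists, with the number tested in brackets, squares for the fit without the replicate term and open symbols for the medians within replicate 1 and replicate 3. The inflammatory cytokines lie at 0.81 and the early-response factors at -0.30, and the dotted line marks the median of all tested genes. The lists were compiled with earlier results known, and cytokines include 10 members with a group of 3 reads or fewer.

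Genes of LPS sensing showed no called response difference. Tlr4 measured 109 and 108 CPM in control, 107 and 85.98 CPM after LPS, 82.9 and 80.95 CPM after IL-4 and 111 and 76.98 CPM after IL-4 then LPS, with a difference of 0.37 ± 0.27 (interval -0.25 to 0.99). Cd14, its co-receptor, measured 170.5 and 154 CPM after IL-4 against 474 and 353 CPM in control (adjusted p 0.0843 without and 0.00325 with the replicate term), and 1209 and 1347 CPM after IL-4 then LPS against 2365 and 2267 CPM after LPS (adjusted p 0.227 and 0.0181). Neither pair of groups overlapped, and its difference was 0.49 ± 0.26. Of 21 tested genes of LPS receptor signalling, 1 was higher and 1 lower at an unadjusted p under 0.05, beside 0.981% and 1.65% of all. The higher was Mapk14, the kinase p38 alpha (0.67 ± 0.26). The lower was Irf5, an interferon regulatory factor downstream of Myd88 (-0.57 ± 0.22). Nos2, the inducible nitric oxide synthase, measured 1.04 and 1.28 CPM in control, 1912 and 1336 CPM after LPS, 0.446 and 0.815 CPM after IL-4 and 1984 and 1777 CPM after IL-4 then LPS. Its LPS groups overlapped, and its difference was 1.07 ± 0.47 (interval -0.02 to 2.17, unadjusted p 0.0539).

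Of 25 tested anti-inflammatory and feedback genes, 1 was higher and 1 lower at an unadjusted p under 0.05, with a median of -0.19. Over all tested genes 0.981% were higher and 1.65% lower. Dusp2, a phosphatase of MAP kinases, measured 4.75 and 3.75 CPM in control, 115 and 52.99 CPM after LPS, 9.54 and 7.06 CPM after IL-4 and 55.2 and 62.1 CPM after IL-4 then LPS, a difference of -1.48 ± 0.52 (unadjusted p 0.0217). Il10ra, a chain of the interleukin 10 receptor, had 0.52 ± 0.20 (unadjusted p 0.0335). Of 42 tested genes of the type I interferon response, 1 was higher, Cxcl9 again, and 0 lower, with a median of 0.07.

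Of 28 tested paired and chemoattractant receptors of myeloid cells, 2 were higher and 1 was lower at an unadjusted p under 0.05, with a median of -0.11. Over all tested genes 0.981% were higher and 1.65% lower. Pilra, an inhibitory paired immunoglobulin-like receptor, measured 3.72 and 4.94 CPM in control, 23.2 and 30.8 CPM after LPS, 0.802 and 1.18 CPM after IL-4 and 18.9 and 17.1 CPM after IL-4 then LPS. IL-4 libraries were the lowest, and the LPS levels with and without IL-4 lay closer together on the log2 scale than the resting levels (difference 1.53 ± 0.40, unadjusted p 0.00526). For Pilra, IL-4 at rest had an adjusted p of 0.108 without and 0.0129 with the replicate term. The activating partner Pilrb1 followed the same order with 29, 104, 2 and 64 reads in control, LPS, IL-4 and IL-4 then LPS. Reads may be shared among these related receptors.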

How the data were processed

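The authors deposited a table of raw read counts per gene, whole numbers named by Ensembl identifier, for mouse macrophages in 4 groups of 2 libraries. HISAT2, HTSeq and StringTie with build mm10 are named, without versions, per the submitters' processing notes. Strandedness, read length and the treatment of multi-mapping reads are not given in the sources used here. Overlapping, antisense or near-identical genes therefore cannot be separated. The table holds 6 further count columns that were not used here. Of its 54532 identifiers, 54495 were found in GENCODE M21, and 53585 had the same start and end.

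From these counts, edgeR 4.0.16 (R 4.3.3) kept 12234 genes by filterByExpr, scaled libraries by trimmed mean of M-values (TMM) factors of 0.787 to 1.251, and fitted 1 mean per group by the quasi-likelihood method, with 4 residual and 3.78 prior degrees of freedom. The contrast was (IL-4 then LPS minus IL-4) minus (LPS minus control), Benjamini-Hochberg adjusted over all tested genes and called at an adjusted p under 0.05. CPM are counts divided by the TMM-scaled library total, times 1e6. SE was computed from the F statistic and is approximate. Read ratios have exact conditional binomial (Clopper-Pearson) 95% intervals, and groups at 0 reads were set to a floor of 3 reads over the group. These intervals and floors reflect counting error alone, since no molecular identifiers are mentioned.

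Every group has replicates 1 and 3, and the labels do not say what the number means. Deviations of replicate 1 from replicate 3 correlated between groups (r 0.314 to 0.481 over 6 group pairs), and same-numbered libraries matched in sex, so a fit with the replicate number as a term (3 residual degrees of freedom) is given beside the fit without it for the calls of the response difference and for single-arm calls that the text states and it changes. There are only 2 numbers, and the correlations were seen together with the results of both fits. Nothing in the labels says that replicates are separate animals or cultures, so p-values reflect only the spread within these groups. Without the replicate term that spread includes a sex difference. The replicate number goes with sex in every group, so the replicate term takes up the part of that difference shared by all groups.

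Alternatives were other scalings, no filter, DESeq2 1.42.0, limma 3.58.1 with voom weights, and leaving out each library. The scripts were tested on simulated data. Genes named are, per direction, those called and then those with the smallest unadjusted p, up to 10, with a mean of at least 5 CPM in some group and the same sign in both replicates, plus 17 genes followed whatever their result and up to 4 genes with the smallest p in each of 21 lists. No fitted value is given where a group held 3 reads or fewer. Members and lists were chosen with earlier results of these data known. Start regions come from RefSeq (GRCm38.p6). Values of some genes chosen by the rule for named genes are not reported here.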

Additional observations from a re-analysis of the deposited data

Results flagged for a closer look

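The response of Bcl6 to LPS differed between cells with and without prior IL-4 by the test of the difference itself when the replicate number was a term, with a response difference of -2.08 on the log2 scale (adjusted p 0.0259, edgeR). All 4 within-replicate responses had the direction of their arm, up in both replicates without IL-4 and down in both after it. They come from the same libraries as the test. The choice of genes also required the same sign of the response difference in both replicates, so they add no separate support. Without the replicate term the adjusted p was 0.159.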

How the results depend on the processing

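With the replicate block, the number of genes called lower was 1 in place of 0, and the number at an unadjusted p under 0.05 was 789 in place of 322. Without the filter on low counts (21068 genes), 16 genes were called higher and 37 lower, and with the block 64 and 127, of which 190 were among the filtered genes. DESeq2 called 4 higher and 1 lower, and with the block 11 and 20. Scaling by library size alone with the block called 1 higher, Tmem154. Leaving out each library gave 0 calls in either direction without the block, and with it 0 to 1 lower. Scaling by DESeq2 size factors or upper quartiles and limma with voom weights left the counts of calls as they were, 0 and 0 without and 0 and 1 with the block. The causes were not tested.

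Over 46 named genes, 355 values with a library left out kept their direction and call status and 13 reversed, and in the other settings 296 did so, 21 passed the threshold where the fit described had not, and 5 reversed. Leave-one-out values ran from -1.45 to 0.014 for Ccl22, -1.40 to 0.69 for Il4ra, -2.67 to 0.44 for Il10, -1.69 to 1.33 for Cxcl10, -1.32 to 1.88 for Tnf and -0.69 to 0.86 for Mrc1. Mrc1 was also positive with the block (0.0088), DESeq2 size factors (0.0051), library size alone (0.065), DESeq2 (0.0043) and voom (0.040). Of the list medians, 143 moved by less than the spread between the replicates and 109 by more. The median of all genes ran from -0.05 to 0.05 over the settings. Precision is limited by 2 libraries per group and by groups near 0 reads.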

Other observations

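Lists not described above showed few or no genes at an unadjusted p under 0.05 without the replicate term, beside 2.63% of all tested genes. Of 18 tested genes of MHC class I presentation, the pathway that displays peptides of cellular proteins, 0 reached it, the median was -0.20, and with the replicate term 5 reached it, all lower, beside 6.45% of all tested genes in either direction. Of 22 glycolysis genes, 0 reached it, and 5 did with the replicate term, all lower, with a median of -0.10. Gapdh, whose value is uncertain as described below, is among these 5. Of 14 genes of MHC class II and co-stimulation, 0 reached it, and 3 did with the replicate term, all higher. Of 26 inflammatory effector enzymes and NF-kB targets, 0 reached it, and with the replicate term 5 higher and 1 lower did. Of 24 genes of amino acid, arginine and polyamine metabolism, 1 higher and 1 lower reached it, and with the replicate term 2 higher and 4 lower did. The other lists with no such gene without the replicate term had at most 2 with it. Among single genes of other lists, Ass1, which makes the precursor of arginine, had a response difference of -0.89 ± 0.31, Sat1, which acetylates polyamines, 0.61 ± 0.21, the mitochondrial enzyme gene Idh2 0.53 ± 0.21 and the replication clamp gene Pcna -0.61 ± 0.21.

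Gapdh, a glycolytic enzyme gene that is abundant in most cells, averaged only 3.53 to 26.5 CPM over the groups, with an SD of 33.4 CPM between the 2 IL-4 libraries. Its response difference was -3.73 (interval -7.52 to 0.06, unadjusted p 0.0527, edgeR), at -4.60 in replicate 1 and -0.33 in replicate 3, and it was called without the filter on low counts. Gapdh has near-identical copies in the genome, and how reads shared with them were counted is not known here.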
